A study of Mus musculus with 2 samples.

Results

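The 10 genes described here carry cholesterol into cells, store it as ester, release it and move it between compartments. They are Scarb1, Apoe, Plin2, Soat1, Lipe, Lipa, Npc1, Npc2, Abca1 and Scp2. They were picked by name from the gene column of both deposited read tables, and they make up 10 of the 15683 annotated genes with at least 1 read. Their reads fell into 158 transcript models in replicate 1 and 136 in replicate 2. Levels count every read of a gene, and shares of transcript forms count full-length reads only.

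The tissue was the adrenal gland of male B6CASTF1/J mice aged 36 days, a first-generation hybrid of C57BL/6J and CAST/EiJ, with no treatment named. There was 1 group with 2 long-read RNA libraries, called replicate 1 and replicate 2 by their biological replicate numbers, so no condition was compared with another. The labels disagree on whether the libraries share an animal, since their animal numbers match in the sample text and differ in the tissue text, so the spread between them may be technical in part. The libraries held 452489 and 463210 reads outside the spike-in RNAs, so 1 read equals 2.21 CPM in the first and 2.16 CPM in the second (CPM, a gene's reads per 1000000 endogenous reads).

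Cells of the adrenal cortex make steroid hormones from cholesterol and hold a large store of it. In rodents most of that cholesterol comes from circulating high-density lipoprotein through the receptor SR-BI, and some comes from low-density lipoprotein taken up whole and broken down in lysosomes. The ester is kept in lipid droplets until a hydrolase frees it for the mitochondria, where steroid synthesis starts.

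Lists of marker genes described the tissue. All 10 adrenal cortex markers had reads, and they summed to 77620 CPM in replicate 1 and 61942 CPM in replicate 2. The 8 chromaffin cell markers summed to 11788 CPM in replicate 1 and 16822 CPM in replicate 2. The 10 adipocyte markers summed to 9348 CPM in replicate 1 and 9872 CPM in replicate 2. Replicate 2 stood apart in its pancreas acinar markers, 8 of 8 of which were higher there. They summed to 75.1 CPM in replicate 1, all of it from Cela1, and 5717 CPM in replicate 2. Liver markers summed to 155 CPM in replicate 1, of which Cyp2e1 held 152 CPM, and 678 CPM in replicate 2. In the test between libraries described below, 5 of the 6 tested were called higher in replicate 2, as were 118 of all 8135 genes tested. Alb had 0 reads in replicate 1 and 42 in replicate 2. Endothelial markers summed to 754 CPM in replicate 1 and 682 CPM in replicate 2. Macrophage markers were low, with 10 of 11 seen, Marco at 0 reads, and sums of 422 CPM in replicate 1 and 453 CPM in replicate 2.

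Together the 10 genes took 8999 CPM in replicate 1 and 8391 CPM in replicate 2, a mean of 8695 ± 430 CPM (SD, n = 2). That was 0.900% of the endogenous reads in replicate 1 and 0.839% in replicate 2. Scarb1 and Apoe dominated the sum, since Scarb1 held 39.2% and Apoe 36.2% of all reads of the 10 genes, while Abca1 held 0.101%. A long read can span a whole RNA, so these CPM values were not divided by length. Divided by the length of each gene's leading annotated model, Apoe stood first at 2233 CPM per kb and Scarb1 next at 1352 CPM per kb.

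**Figure D1:**
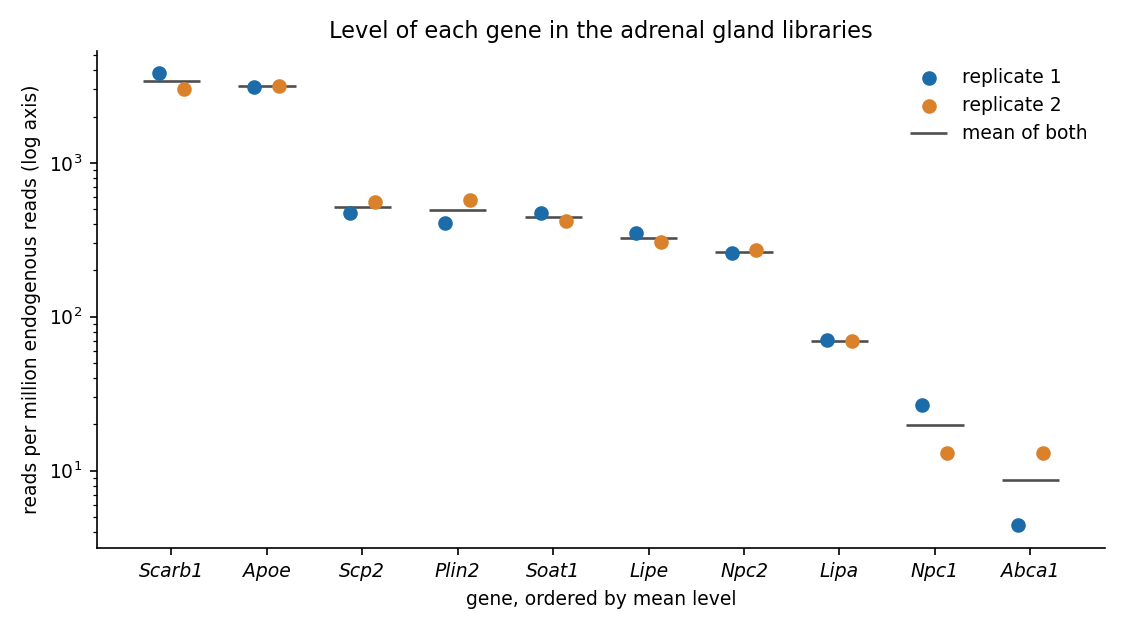
Level of each gene in CPM on a log axis, with replicate 1 left of replicate 2 and a line at their mean. Scarb1 and Apoe stood at 3003 CPM or above in both libraries, Npc1 and Abca1 stayed under 30 CPM, and the other 6 genes lay between.

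Scarb1 (ENSMUSG00000037936.15, chr5:125277087-125341094, minus strand, mm10) encodes SR-BI, the receptor that takes cholesteryl ester selectively from high-density lipoprotein. It had 1726 reads (3814 CPM) in replicate 1 and 1391 reads (3003 CPM) in replicate 2, a mean of 3409 ± 574 CPM (SD, n = 2). Only 10 annotated genes had a higher mean. Replicate 1 was the higher library, by 1.27 times (95% interval 1.18 to 1.36, exact, counting error only).

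Apoe (ENSMUSG00000002985.16, chr7:19696109-19699188, minus strand) encodes apolipoprotein E, the lipoprotein ligand that adrenal cortex cells also make themselves. It had 1412 reads (3121 CPM) in replicate 1 and 1467 reads (3167 CPM) in replicate 2, a mean of 3144 ± 32.9 CPM, and ranked 14 among all genes. The ratio of replicate 1 to replicate 2 was 0.985 (0.915 to 1.06). With every read counted, the Scarb1 range over the libraries enclosed the Apoe range, so the order of these most abundant members did not exceed their spread. With full-length reads alone Scarb1 was the higher gene in both libraries. It had 1531 such reads against 1099 for Apoe in replicate 1, and 1235 against 1091 in replicate 2.

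Of the storage genes, Plin2 (ENSMUSG00000028494.12, chr4:86648386-86670060, minus strand) encodes perilipin 2, a coat protein of lipid droplets. It had 184 reads (407 CPM) in replicate 1 and 267 reads (576 CPM) in replicate 2, a mean of 492 ± 120 CPM. Replicate 1 was the lower library, at 0.705 times the level of replicate 2 (0.581 to 0.854). Soat1 (ENSMUSG00000026600.12, chr1:156424525-156474331, minus strand) encodes sterol O-acyltransferase 1, which joins a fatty acid to cholesterol. It had 214 reads (473 CPM) in replicate 1 and 195 reads (421 CPM) in replicate 2, a mean of 447 ± 36.7 CPM. Soat2, the other enzyme of this kind, had no read in either library, where 3 reads would be 6.63 CPM in replicate 1 and 6.48 CPM in replicate 2.

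Lipe (ENSMUSG00000003123.15, chr7:25379527-25398710, minus strand) encodes hormone-sensitive lipase, which hydrolyses stored cholesteryl ester and, in adipocytes, acylglycerols. It had 158 reads (349 CPM) in replicate 1 and 141 reads (304 CPM) in replicate 2, a mean of 327 ± 31.7 CPM. Adipocyte genes were plentiful in these glands, since Adipoq had 373 CPM in replicate 1 and 402 CPM in replicate 2. How much of the Lipe and Plin2 RNA came from fat cells was not tested.

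The lysosomal genes covered a wide range. Npc2 (ENSMUSG00000021242.9, chr12:84754562-84773152, minus strand), which encodes the soluble cholesterol carrier of the lysosome, had 118 reads (261 CPM) in replicate 1 and 125 reads (270 CPM) in replicate 2. Lipa (ENSMUSG00000024781.16, chr19:34492318-34527474, minus strand), the lysosomal acid lipase, had 32 reads in each library, or 70.7 CPM in replicate 1 and 69.1 CPM in replicate 2. Npc1 (ENSMUSG00000024413.14, chr18:12189692-12236400, minus strand), the lysosomal membrane protein that receives cholesterol from NPC2, had 12 reads (26.5 CPM) in replicate 1 and 6 reads (13.0 CPM) in replicate 2. The NPC partners thus stood far apart in reads, with mean levels of 265 ± 6.42 CPM for Npc2 and 19.7 ± 9.59 CPM for Npc1. Their order was the same per kb of leading model, at 80.4 CPM per kb for Npc2 and 8.89 CPM per kb for Npc1, where the Npc1 model was the 2219-base Npc1-206, which rests on 1 read.

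Abca1 (ENSMUSG00000015243.4, chr4:53030787-53159895, minus strand), the transporter that passes cellular cholesterol to apolipoprotein A-I, was the rarest member. It had 2 reads (4.42 CPM) in replicate 1 and 6 reads (13.0 CPM) in replicate 2, too few for the test between libraries. No Abca1 read was full-length. Scp2 (ENSMUSG00000028603.15, chr4:108043839-108144998, minus strand), which encodes the sterol carrier protein and a peroxisomal thiolase, had 214 reads (473 CPM) in replicate 1 and 257 reads (555 CPM) in replicate 2, a mean of 514 ± 57.9 CPM.

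Ordered by mean CPM, the members ran Scarb1, Apoe, Scp2, Plin2, Soat1, Lipe, Npc2, Lipa, Npc1 and Abca1. Neighbours whose ranges over the libraries overlapped or touched were Scarb1 and Apoe, Scp2 and Plin2, Plin2 and Soat1, and Npc1 and Abca1. The other neighbours did not overlap. Per kb of leading model the order ran Apoe, Scarb1, Scp2, Plin2, Lipe, Npc2, Soat1, Lipa, Npc1 and Abca1, so Soat1, whose model Soat1-207 is 8371 bases long, stood after Lipe and Npc2. With full-length reads alone, and CPM taken over full-length reads, the mean was 309.6 CPM for Npc2 and 309.3 CPM for Lipe. Their order differed between the libraries. Lipe had 125 full-length reads against 111 for Npc2 in replicate 1, and 105 against 119 in replicate 2.

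Reads per gene were compared between the libraries with Fisher's exact test (two-sided) over all 8135 genes with at least 10 reads summed, with Benjamini-Hochberg adjustment. This compares the reads of these libraries, not conditions. The call needed an adjusted p under 0.05 with a fold of at least 2 after adding 1 CPM, and 257 genes, or 3.16%, met it. Of the 9 members tested, 0 were called, 2 passed at an unadjusted p under 0.05, which 16.9% of all genes tested passed, and their median log2 ratio of replicate 1 over replicate 2 was 0.03, the same as the median over all genes tested. Without the fold minimum 6.45% of genes passed, and so did the same 2 members, Scarb1 and Plin2.

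Scarb1 passed at an adjusted p of 1.97e-09 in Fisher's exact test with the higher level in replicate 1. Beside it, 9 of the 10 adrenal cortex markers were also higher in replicate 1, as were 4493 of all 8135 genes tested. Star, which moves cholesterol into mitochondria, was 1.49 times as high in replicate 1 as in replicate 2 (1.43 to 1.56), and the side-chain cleavage enzyme gene Cyp11a1 was 1.17 times as high (1.14 to 1.20). The part of tissue composition in the Scarb1 difference was not tested, and in these bulk libraries fewer cells of a type and less RNA per cell cannot be told apart.

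Plin2 passed at an adjusted p of 0.00694 in the same exact test with the lower level in replicate 1. Of the adipocyte markers, Fabp4 had 1054 CPM in replicate 1 and 1772 CPM in replicate 2. Ucp1 had 438 CPM in replicate 1 and 943 CPM in replicate 2. Car3 went the other way, with 3677 CPM in replicate 1 and 2200 CPM in replicate 2. Of the 10 adipocyte markers, 5 were higher in replicate 1 and 5 in replicate 2, and their part in the Plin2 difference was not tested. With the pancreas acinar and liver markers left out of the library totals, a choice made after the data were seen, the log2 ratio of replicate 1 over replicate 2 was -0.51 for Plin2 and 0.34 for Scarb1.

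**Figure D2:**
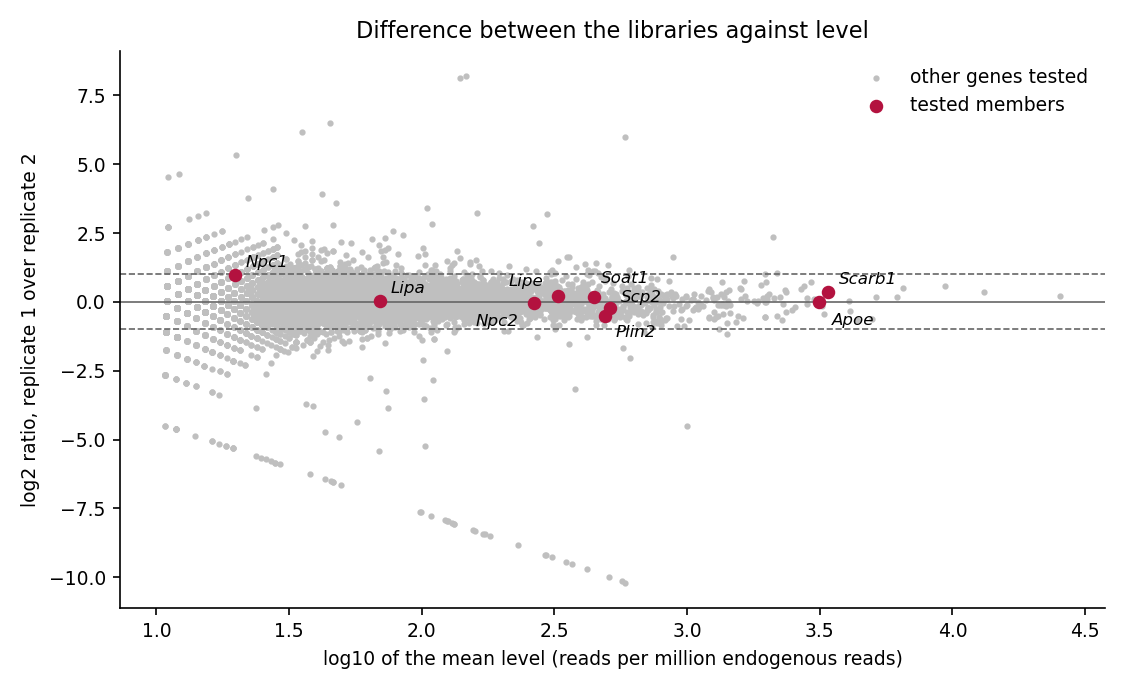
Log2 ratio of replicate 1 over replicate 2 (after adding 1 CPM) against the log10 mean level of each tested gene, with the 9 tested members named and dashed lines at 2-fold. All 9 members lay within the lines, Npc1 nearest to one at 0.98, while the low trail at the lower right holds genes with no read in replicate 1, pancreas acinar markers among them.

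Each read had been sorted by its splicing. Known reads follow an annotated transcript, NIC reads join annotated splice sites in an unannotated combination, and NNC reads use at least 1 unannotated splice site. These classes are the full-length reads here. ISM reads follow only a part of an annotated transcript, and Genomic reads lie over a gene but lack its splicing. A Known read matches the junctions of a model but need not reach its ends.

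Scarb1 reads were full-length in 88.7% of cases in replicate 1 (95% Wilson interval 87.1 to 90.1) and 88.8% in replicate 2 (87.0 to 90.3). Most of the remaining Scarb1 reads were ISM reads that began inside the gene and ran to its last exon, 126 of 130 in replicate 1 and 104 of 107 in replicate 2. They began in many exons, most often exons 2, 4, 7 and 10. Exon 2 had 26 starts in replicate 1 and 14 in replicate 2, and exon 10 had 19 in replicate 1 and 18 in replicate 2.

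**Figure D3:**
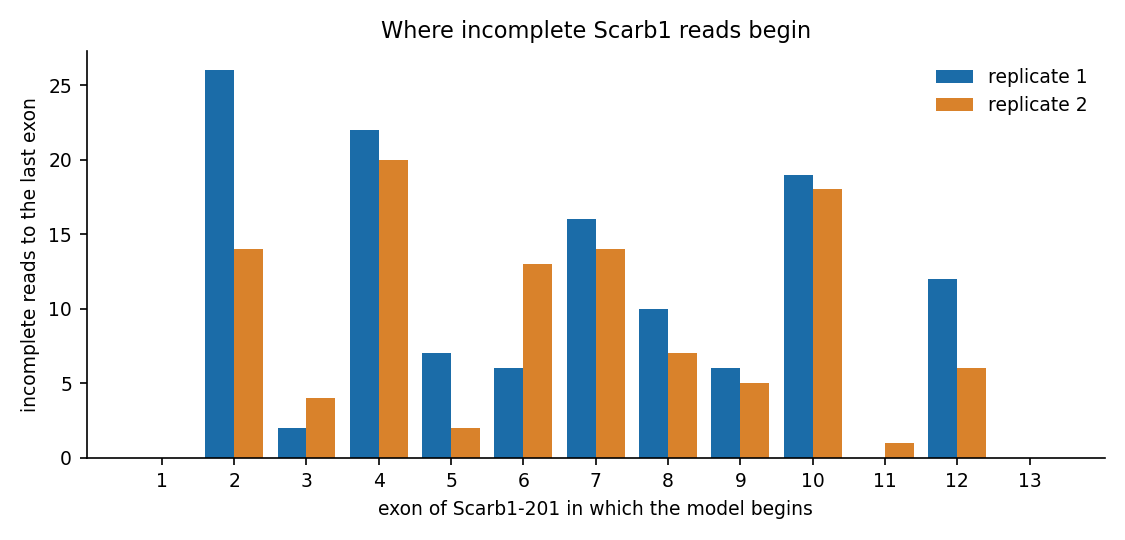
Number of incomplete Scarb1 reads reaching the last exon, by the exon of Scarb1-201 in which their model begins, with replicate 1 left of replicate 2. Starts were spread over exons 2 to 12, with exons 2, 4, 7 and 10 the tallest in replicate 1 and exon 3 and exon 11 among the lowest.

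Apoe differed from Scarb1 in where its other reads fell. Its full-length share was 77.8% in replicate 1 (75.6 to 79.9) and 74.4% in replicate 2 (72.1 to 76.5). Genomic reads made up 21.5% of Apoe reads in replicate 1 and 25.2% in replicate 2, against a median of 2.11% over the 8135 genes with at least 10 reads. All 303 in replicate 1 and all 370 in replicate 2 belonged to 1 unspliced model that lies within the last exon (chr7:19696267-19696620). A Genomic model pools reads of different lengths, so the lengths of these reads are not given.

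Most Genomic reads of the other members belonged to models that lay in the last exon or overlapped it. The exceptions were 1 read each for Scp2 and Soat1 in replicate 1 and for Plin2 in replicate 2. The model of the 21 Scp2 reads in replicate 2 overlapped the last exon of Scp2-202 but was not wholly within it. For Scarb1 such models held 65 of 65 Genomic reads in replicate 1 and 49 of 49 in replicate 2. For Lipe they held 10 of 10 in replicate 1 and 18 of 18 in replicate 2. Some of these models were short, at 3 bases for Scarb1 in replicate 2 and 17 bases for Lipe in each library. They need not show the full extent of the reads pooled in them. Scp2 had 1 Genomic read in replicate 1 and 21 in replicate 2, and its full-length share was 97.2% in replicate 1 (94.0 to 98.7) and 89.9% in replicate 2 (85.6 to 93.0). Fisher's exact test of the full-length share over all genes with at least 20 reads in each library gave Scp2 an adjusted p of 0.295. Called at an adjusted p under 0.05 and 10 percentage points were 3 of 3416 genes, or 0.0878%, and 0 of the 8 members tested, of which Apoe and Scp2 had an unadjusted p under 0.05, as had 5.62% of all genes tested.

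Npc1 and Abca1 had the fewest full-length reads. Npc1 had 1 full-length read of 12 in replicate 1 and 2 of 6 in replicate 2, and Abca1 had 0 of 2 in replicate 1 and 0 of 6 in replicate 2. The full coding models are 5224 bases in 25 exons for Npc1-201 and 10262 bases in 50 exons for Abca1-201. Soat1-207 is 8371 bases long, though a Known read need not reach its ends. Soat1 reads were full-length in 86.0% of cases in replicate 1 and 88.2% in replicate 2. The part of length in these shares, and in the low levels of Npc1 and Abca1, was not tested. Over all genes with at least 10 reads the median share was 89.6%. Above it in both libraries were Plin2 (96.2% in replicate 1 and 92.1% in replicate 2), Npc2 (94.1% and 95.2%) and Scp2 (97.2% and 89.9%).

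**Figure D4:**
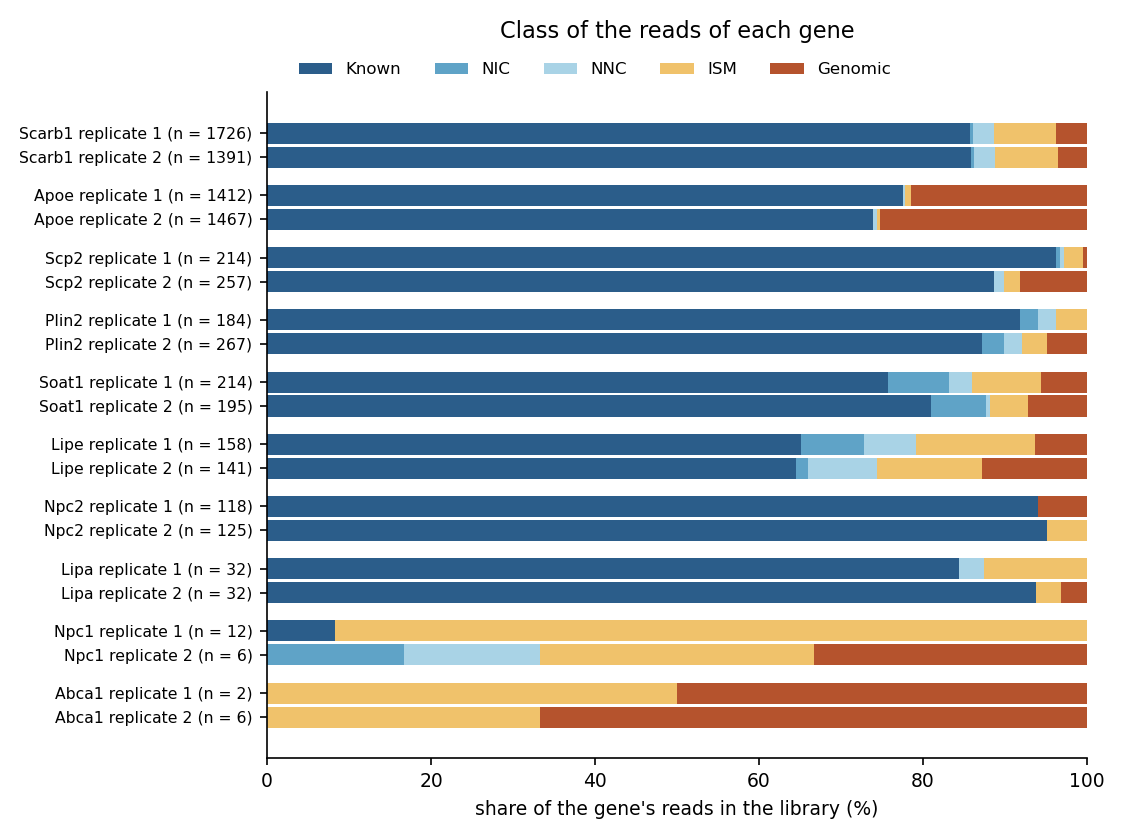
Share of each gene's reads in the Known, NIC, NNC, ISM and Genomic classes, with replicate 1 above replicate 2 and the number of reads beside each bar. Among the genes with over 100 reads in each library, Apoe carried the widest Genomic block and Lipe the widest NIC and NNC blocks together, while Npc1 and Abca1 rest on 12 reads or fewer in each library.

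Scarb1 makes more than 1 receptor by the use of exon 12 of Scarb1-201. This exon encodes the cytoplasmic tail of SR-BI with its stop codon at the very end, and without it translation runs on into exon 13, which gives the receptor SR-BII another tail. Both tails are shown because they are what the splice choice exchanges. The coding sequence shares 467 codons up to this point and then adds 42 residues in Scarb1-201 (509 in all) or 39 in Scarb1-202 (506 in all). The sequences are from the GENCODE M21 transcripts on mm10, read 5′ to 3′ on the minus strand, with the stop codon in capitals. The first is exon 12 (chr5:125281105-125281233) and the second is the part of exon 13 that is translated when exon 12 is skipped (chr5:125277746-125277865).
Exon 12 of Scarb1-201: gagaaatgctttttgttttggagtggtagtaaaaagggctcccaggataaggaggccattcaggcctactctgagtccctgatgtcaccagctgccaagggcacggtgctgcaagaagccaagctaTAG
Exon 13, translated after skipping: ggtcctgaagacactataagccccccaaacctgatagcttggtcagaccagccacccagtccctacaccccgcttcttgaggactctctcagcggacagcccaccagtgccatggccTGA

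Nearly all Scarb1 RNA kept exon 12. Of the full-length reads that cover or skip this exon, it was skipped in 47 of 1525 in replicate 1, or 3.08% (95% Wilson interval 2.33 to 4.07), and in 31 of 1235 in replicate 2, or 2.51% (1.77 to 3.54). Left out were 6 full-length reads of replicate 1 and 0 of replicate 2, which did neither. The intervals overlapped, and the mean was 2.80 ± 0.404% (SD, n = 2). The SR-BII transcript Scarb1-202 itself had 42 reads in replicate 1 and 31 in replicate 2. Scarb1-201 had 1415 reads in replicate 1 and 1150 in replicate 2, or 92.4% and 93.1% of the full-length reads.

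Small shifts of splice sites were frequent among the unannotated Scarb1 forms. Scarb1 had 43 unannotated forms, of which 6 were in both libraries, and together they held 50 reads in replicate 1 and 40 in replicate 2, or 3.27% and 3.24% of its full-length reads. Of the 7 unannotated forms with at least 3 reads, 6 differed from Scarb1-201 by 1 moved splice site. The most frequent had exon 12 longer by 11 bases at its 3′ end, beyond the stop codon, with 13 reads in replicate 1 and 8 in replicate 2. The next began exon 12 later by 3 bases, which takes gag from the start of the sequence above, with 8 reads in replicate 1 and 5 in replicate 2. The origin of such small shifts was not tested.

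Scp2 makes a long protein, SCPx, a peroxisomal thiolase joined to the sterol carrier domain, and a short one with the sterol carrier domain alone. The forms differ in where the RNA starts. Scp2-201 has 16 exons and encodes 547 residues, and Scp2-202 has 5 exons and encodes 143 residues, or 26.1% of the long protein. The short form's start codon lies in exon 12 of the long form, after 1212 coding bases and in the same reading frame. That exon is shown because it joins the forms, with the start codon of the short form in capitals (chr4:108071257-108071410, minus strand, GENCODE M21). All of it is coding in the long form.
Exon 12 of Scp2-201: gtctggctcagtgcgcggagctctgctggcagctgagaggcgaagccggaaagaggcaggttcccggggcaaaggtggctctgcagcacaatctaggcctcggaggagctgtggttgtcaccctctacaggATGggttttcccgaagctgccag

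The short form led in the adrenal gland. Of full-length Scp2 reads with either start, 181 of 207 in replicate 1 had the short-form start, or 87.4% (95% Wilson interval 82.2 to 91.3), as had 207 of 229 in replicate 2, or 90.4% (85.9 to 93.6). The long-form start had 26 reads in replicate 1 and 22 in replicate 2, and 1 full-length read in replicate 1 and 2 in replicate 2 had neither start and were left out. The mean share of the short form was 88.9 ± 2.09% (SD, n = 2), and the intervals overlapped. A long-form RNA cut short within exon 12 would be counted as the short form. Incomplete reads that began in exons 2 to 11 of the long form and reached its end numbered 2 in replicate 1 and 2 in replicate 2.

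Lipe had the lowest leading share of the 8 members with at least 20 full-length reads in both libraries. Its leading form Lipe-202 held 42.4% of full-length reads in replicate 1 (34.1 to 51.2) and 49.5% in replicate 2 (40.1 to 58.9). Among 3030 genes that had 20 or more full-length reads per library, the leading form took a median of 91.9%, and 5.64% of those genes had a lower mean share than Lipe. The Lipe forms differ at the 5′ end. The usual short first exon was used by 60 of 125 full-length reads in replicate 1, or 48.0%, and by 57 of 105 in replicate 2, or 54.3%.

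An upstream first exon was used by 40 reads in replicate 1, or 32.0% (24.5 to 40.6), and by 30 in replicate 2, or 28.6% (20.8 to 37.8). A first exon that runs from the first intron into exon 2, as in Lipe-208, was used by 15 reads in replicate 1 and 11 in replicate 2, and other starts by 10 in replicate 1 and 7 in replicate 2. The mean shares were 51.1 ± 4.44% for the usual start, 30.3 ± 2.42% for the upstream start and 11.2 ± 1.08% for the start in the intron. The upstream exon changes the protein. It holds a start codon of its own, so that Lipe-201 encodes 802 residues, 43 more than the 759 of Lipe-202 and Lipe-208. Its coding part is shown with that start codon in capitals (chr7:25395501-25395609, minus strand, GENCODE M21).
Upstream first exon of Lipe-201, coding part: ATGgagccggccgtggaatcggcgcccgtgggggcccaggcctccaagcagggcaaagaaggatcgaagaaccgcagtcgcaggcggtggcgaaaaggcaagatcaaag

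Lipe also had the highest share of unannotated forms among the members with over 20 full-length reads in each library, 17.6% in replicate 1 and 13.3% in replicate 2, spread over 25 forms. The most frequent of these carried an additional exon in the first intron and had 1 read in replicate 1 and 4 in replicate 2. It was classed NIC in 1 library and NNC in the other, although its junctions were identical.

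Soat1-207 led Soat1 with 154 of 184 full-length reads in replicate 1, or 83.7%, and 149 of 172 in replicate 2, or 86.6%. A recurrent unannotated form left out exon 2, which carries the annotated start codon. The exon is shown because its loss removes that codon. It is 118 bases long, of which the last 88 are coding, and the start codon is in capitals (chr1:156466681-156466798, minus strand, GENCODE M21).
Exon 2 of Soat1-207: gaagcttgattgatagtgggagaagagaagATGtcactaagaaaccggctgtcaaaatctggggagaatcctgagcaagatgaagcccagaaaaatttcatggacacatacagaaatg

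Of the full-length Soat1 reads that hold or skip exon 2, skipping was seen in 11 of 178 in replicate 1, or 6.18% (95% Wilson interval 3.49 to 10.7), and in 6 of 166 in replicate 2, or 3.61% (1.67 to 7.66). Another 6 full-length reads in each library did neither and were left out. The mean was 4.90 ± 1.81% (SD, n = 2), and the intervals overlapped. In 10 of these reads in replicate 1 and in all 6 in replicate 2 the rest of the chain was that of Soat1-207. Another unannotated form had exon 2 longer by 23 bases at its 3′ end, with 1 read in replicate 1 and 5 in replicate 2.

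**Figure D5:**
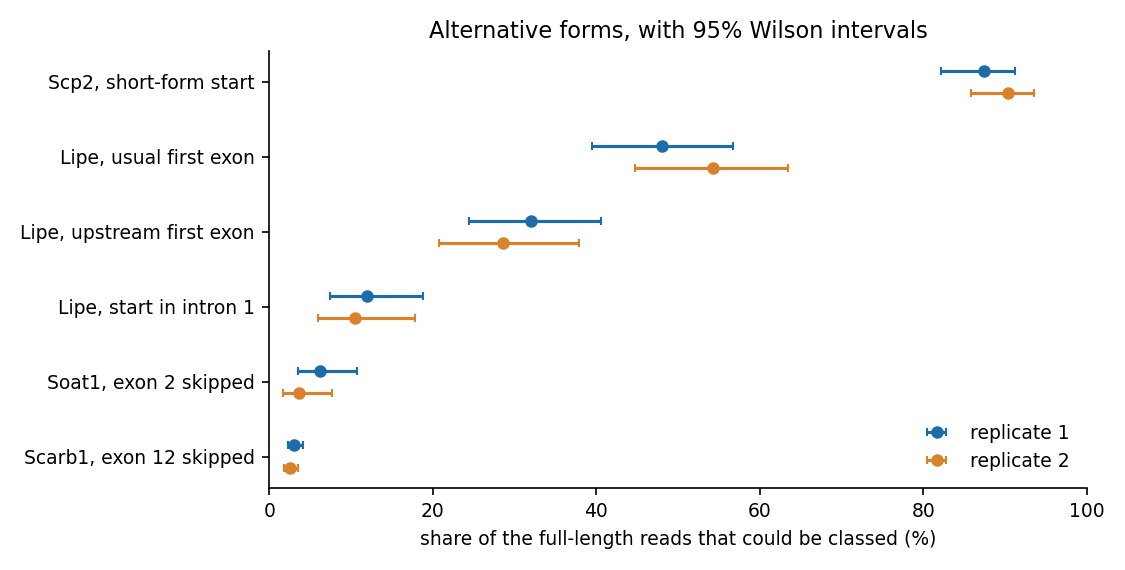
Share of the full-length reads that could be classed with each named start or skipped exon, as points with 95% Wilson intervals and replicate 1 above replicate 2. The libraries' intervals overlapped in every row, with the Scp2 short-form start at 87.4% and 90.4% and the skipping of Scarb1 exon 12 at 3.08% and 2.51%.

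Apoe, Plin2, Npc2 and Lipa each had 1 leading form. Apoe-206 held 97.5% of Apoe full-length reads in replicate 1 and 97.6% in replicate 2, and Apoe-205, which has 3 exons and encodes the same 311 residues, had 20 reads in replicate 1 and 16 in replicate 2. Plin2-201 held 95.5% in replicate 1 and 93.9% in replicate 2. Npc2-201 held 110 of 111 full-length reads in replicate 1 and 119 of 119 in replicate 2, and no unannotated Npc2 form was seen. Lipa-201 held 23 of 28 full-length reads in replicate 1 and 27 of 30 in replicate 2.

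One Plin2 form in both libraries added a ninth exon far downstream. Its last junction cuts exon 8 before the annotated stop codon, so that codon is absent from the RNA, and it had 3 reads in replicate 1 and 4 in replicate 2, or 1.69% and 1.63% of full-length Plin2 reads. Scarb1, Apoe, Scp2, Plin2, Lipe, Soat1, Npc2 and Lipa had enough reads for a test of the leading share between the libraries. Fisher's exact test with Benjamini-Hochberg adjustment and a minimum of 10 percentage points called 0 of these 8, and it called 2 of 3030 genes, or 0.066%. None of the 8 had an unadjusted p under 0.05, against 4.32% of the genes tested.

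Reads on the strand opposite to the members numbered 3 or fewer per member and library except over Scarb1, Soat1 and Abca1. Over Scarb1 they numbered 37 in replicate 1 and 2 in replicate 2. Over Soat1 they numbered 56 in replicate 1 and 59 in replicate 2, and 46 of them in replicate 1 and 50 in replicate 2 overlapped its last exon. All Soat1 antisense reads were unspliced, as were all but 1 over Scarb1. Over Soat1 the libraries were alike in number, while over Scarb1 nearly all such reads came from replicate 1. Abca1 had 3 in replicate 1 and 10 in replicate 2, more than its 2 and 6 reads in sense. Their origin was not tested.

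The wider pathway was read from a list of 44 genes for lipoprotein receptors, ligands, lipases, droplet proteins and sterol transfer proteins. Reads were seen for 39 of them, and 32 had enough for the test between libraries. Of these, 18 were higher in replicate 1 and 14 in replicate 2, the median log2 ratio was 0.05, and 1 met the same call, beside 3.16% of all genes. That gene was Apoa1, which encodes the main protein of high-density lipoprotein and stands in the liver list too. It had 1 read in replicate 1 and 63 in replicate 2, with an adjusted p of 1.05e-15 in Fisher's exact test, beside the higher liver markers of replicate 2. The part of liver RNA in the Apoa1 difference was not tested.

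Pnpla2 and Lpl had the highest mean levels of the list. Pnpla2, the adipose triglyceride lipase, had 853 CPM in replicate 1 and 1051 CPM in replicate 2, a mean of 952 ± 140 CPM. Lpl, lipoprotein lipase, had 946 CPM in replicate 1 and 805 CPM in replicate 2. Plin1, the droplet coat of adipocytes, had 334 CPM in replicate 1 and 434 CPM in replicate 2. Pnpla2 thus had a higher mean CPM than the members Plin2, Soat1 and Lipe.

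Tspo, a cholesterol-binding protein of the outer mitochondrial membrane, had 809 CPM in replicate 1 and 907 CPM in replicate 2. The lysosomal membrane proteins Lamp1 and Lamp2 averaged 610 ± 47.2 CPM and 205 ± 9.58 CPM. Lrpap1, a chaperone of lipoprotein receptors in the secretory pathway, averaged 257 ± 58.3 CPM, and Mgll, the monoglyceride lipase, averaged 185 ± 24.7 CPM. None of these 8 most read genes of the list reached 2-fold between the libraries. Without the fold minimum Pnpla2 alone among them passed, as did 6.45% of all genes tested. Its adjusted p was 0.0379 in Fisher's exact test, at 0.811 times the replicate 2 level in replicate 1 (0.708 to 0.929). Genes of the list with no read in either library included Apob, Lipc, Pdzk1 and Soat2.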

How the data were processed

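Long-read RNA was measured in 2 adrenal gland libraries of 1 group. Per the labels' protocols the authors ran a standard long-read pipeline, whose aligner is not given in the sources used here, nor are versions. The authors deposited whole read counts per transcript model, with TALON classes, on mm10 and GENCODE M21, per the file headers. Exon positions, model lengths and exon numbers were deposited with the models. Unannotated forms were matched between libraries by their junctions.

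Reads were summed per gene, leaving out spike-ins (5512 and 15792 reads). CPM is over endogenous reads, or over those of the kept classes where read classes were left out. Fisher's exact test with Benjamini-Hochberg adjustment ran over all genes, and shares have 95% Wilson intervals. No molecular identifiers were used, so intervals and the limit of 3 reads cover counting error only. Nothing says that the libraries came from separate animals beyond doubt, so p-values compare these libraries.

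The tests were checked on simulated reads that held counting error only and planted changes larger than the call minimums. The check does not cover smaller changes or other spread between libraries. The tools were Python 3.11.15, pandas 2.3.3, scipy 1.17.1 and, for scaling alternatives, R 4.3.3 with edgeR 4.0.16 and DESeq2 1.42.0. The text names all 10 members, and of the pathway list the 8 genes with the most reads and every called gene. Some genes of that list are not reported here. Members and lists were chosen with earlier results of these data known. Alternatives covered scaling, read minimums, fold minimums and read classes.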

Additional observations from a re-analysis of the deposited data

How the results depend on the processing

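Without a fold minimum the count of genes that differed between the libraries was 525 in place of 257 and that of members was 2, and without a minimum change the counts were 6 genes for the full-length share and 6 for the leading form. With Known reads alone Fisher's exact test called 0 genes for the leading form, where 63 of 2732 had an unadjusted p under 0.05. With Genomic reads left out of both the counts and the library totals, the members summed to 8176 CPM. The Apoe log2 ratio of replicate 1 over replicate 2 then turned to 0.035 (adjusted p = 0.887 by Fisher's exact test). With full-length reads alone in counts and totals the Lipa ratio turned to -0.12 (adjusted p = 0.992 by Fisher's exact test). Leaving out each replicate in turn gave a Scarb1 exon 12 share of 96.9 to 97.5%, a Scp2 short-form share of 87.4 to 90.4% and a summed level of 8391 to 8999 CPM. The causes were not tested. The tests between libraries cannot be run with 1 library. No paired analysis was possible because there is 1 group. TMM scaling called 253 genes and DESeq2 size factors 237, with 0 members each. Depth limits Npc1 and Abca1, and the share of Lipa forms rests on 28 and 30 reads.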
